A study of Mus musculus with 30 samples.

Results

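The transcripts of 10 direct target genes of the transcription factor p53 were followed through 10 groups of mouse embryonic stem cells: Cdkn1a, Mdm2, Btg2, Fas, Perp, Ccng1, Bbc3, Zmat3, Trp53inp1 and Sesn1. They were chosen by name, with earlier results of these data known. Each was found as a single row among the 55421 genes of the deposited count table. All 10 passed the filter on low counts that left 19868 genes for testing.

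The cells were E14 embryonic stem cells, a male line of 129P2/Ola background, kept on gelatin in serum with leukemia inhibitory factor and the inhibitors PD0325901 and CHIR-99021. Polyadenylated RNA was sequenced from 5 engineered lines, each untreated and treated for 24 h, which gives 10 groups of 3 libraries. The labels list the molecule as genomic DNA, while the protocol describes polyadenylated RNA and the table holds counts over exons. Every line carries Tir1, the plant protein that marks a protein tagged with an auxin-inducible degron (AID) for destruction once auxin is present. PDS5A, PDS5B, WAPL and NIPBL, the proteins removed here, regulate how the cohesin ring loads on, moves along and leaves chromatin, and RAD21 is a part of that ring.

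The TIR1 line (genotype Tir1) has no degron and received auxin (indole-3-acetic acid, 500 µM). The PDS5AB line (PDS5A-AID, PDS5B-AID, Tir1) and the WAPL line (WAPL-AID, Tir1) received auxin in the same way. The PDS5AB-NIPBL line carries PDS5A-AID and PDS5B-AID together with NIPBL-FKBP and RAD21-Halo, beside Tir1. The WAPL-NIPBL line carries WAPL-AID with the same NIPBL-FKBP, RAD21-Halo and Tir1. Both received auxin together with dTAG-13 (500 nM), which destroys FKBP-tagged protein. No group received dTAG-13 alone, and no line without a degron received it. Each genotype is represented by a single named cell line, so line and genotype cannot be told apart. The degrons act on protein, and the transcripts described here do not check the loss of the tagged proteins.

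p53 is held low in unstressed cells mainly by Mdm2, an E3 ubiquitin ligase that is itself a p53 target and so closes a negative feedback loop. When DNA damage or other stress stabilises it, p53 binds response elements made of a pair of 10-base units and activates genes for cell cycle arrest, apoptosis, antioxidant defence and its own restraint. In mouse embryonic stem cells, p53 is also known for promoting differentiation.

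The sequences that carry such elements are shown because the 10 genes were chosen as direct targets. RefSeq promoter windows (mouse GRCm38.p6) were matched for 7 of the 10 genes, with 11 windows in all, and Perp, Zmat3 and Trp53inp1 had none. The 250 bases before each start were searched for the p53 response element consensus, which is its own reverse complement, with a spacer of 0 or 1 base and at most 3 mismatches. A match was found for 4 genes. The matched 20 bases are in capitals, and each window reads 5′ to 3′ on the strand of its gene.
Cdkn1a: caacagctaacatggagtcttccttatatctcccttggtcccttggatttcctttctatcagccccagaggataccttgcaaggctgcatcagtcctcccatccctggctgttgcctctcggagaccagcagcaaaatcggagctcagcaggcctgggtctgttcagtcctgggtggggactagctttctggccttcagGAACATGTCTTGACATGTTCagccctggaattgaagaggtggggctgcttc
Ccng1: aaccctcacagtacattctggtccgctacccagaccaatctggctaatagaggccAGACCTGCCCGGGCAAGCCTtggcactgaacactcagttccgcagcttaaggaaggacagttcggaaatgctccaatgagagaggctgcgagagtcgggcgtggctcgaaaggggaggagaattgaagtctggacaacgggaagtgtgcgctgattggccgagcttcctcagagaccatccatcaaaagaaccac
Bbc3: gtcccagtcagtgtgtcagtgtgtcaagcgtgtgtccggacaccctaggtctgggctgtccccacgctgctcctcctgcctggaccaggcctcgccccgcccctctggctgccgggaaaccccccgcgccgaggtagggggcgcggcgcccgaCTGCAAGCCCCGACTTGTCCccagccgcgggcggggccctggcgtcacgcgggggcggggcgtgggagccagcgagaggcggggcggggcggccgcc
Sesn1: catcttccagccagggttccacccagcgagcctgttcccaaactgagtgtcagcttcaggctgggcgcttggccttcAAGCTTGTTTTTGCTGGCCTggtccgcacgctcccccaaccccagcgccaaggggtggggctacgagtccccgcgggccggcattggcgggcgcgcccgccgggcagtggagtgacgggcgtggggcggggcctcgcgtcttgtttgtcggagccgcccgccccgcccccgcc
The Cdkn1a window (chr17:29090729-29090978, plus strand) holds a match with 1 mismatch at chr17:29090928-29090947, 31 bases before the start, and 2 exact 10-base units. The Ccng1 window (chr11:40755287-40755536, minus strand) holds a match with 1 mismatch at chr11:40755462-40755481, 175 bases before the start. Matches with 3 mismatches lay in the windows of Bbc3 (chr7:16309333-16309582, plus strand, match at chr7:16309486-16309505) and of Sesn1 (chr10:41887189-41887438, plus strand, match at chr10:41887266-41887285). Both of these windows lie inside the span of their gene, and none of the 4 matches overlaps an annotated exon of its gene. Cdkn1a, Bbc3 and Sesn1 have further windows, before other starts, and none of these held a match. The best full site there had 7 mismatches for Cdkn1a (chr17:29093519-29093768), 6 for Bbc3 and 8 for Sesn1. Of 32851 promoter windows of this length, 29 (0.0883%) held a match with at most 1 mismatch and 748 (2.28%) one with at most 3. The Mdm2 window held an exact 10-base unit and no full match. Such a unit occurred in 7.13% of all windows. The Btg2 and Fas windows held neither, which says only that these letters were not in these windows.

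Levels are given as CPM, gene counts scaled to library size with edgeR's TMM factors. Changes are log2 fold changes with their standard error (SE). Adjusted p-values are from the quasi-likelihood test of edgeR, after Benjamini and Hochberg, over 19868 genes, and called means that this value was under 0.05. Library totals ran from 19632704 to 45539021 counts, and the correlation of replicates was at least 0.987. Nothing in the labels says that the 3 libraries of a group came from separate cultures, so p-values measure the spread between these libraries, which may be technical. The labels also number the libraries: untreated TIR1 and both PDS5AB groups carry numbers from 1 to 21, and all other groups, auxin-treated TIR1 included, carry numbers from 25 to 45. The auxin effect in TIR1 therefore runs across both ranges, and the number range and auxin cannot be told apart there. Each difference between a degron line and TIR1 in the treatment change carries the same limit.

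Pluripotency markers were high throughout: the sum of 10 markers lay between 6680 and 7430 CPM in the untreated libraries. It lay between 6510 and 6980 CPM in auxin-treated TIR1 cells, 4490 and 4790 in PDS5AB, 5160 and 5350 in WAPL cells, 5850 and 6240 in PDS5AB-NIPBL, and 5560 and 5720 in WAPL-NIPBL cells. The sum of 7 primitive endoderm markers went from at most 27.3 to at least 59 CPM in PDS5AB cells, from at most 13.2 to at least 38.1 CPM in WAPL cells and from at most 13.1 to at least 30.1 CPM in PDS5AB-NIPBL cells. In WAPL-NIPBL cells it went from at most 6.21 to at least 14.3 CPM, and in TIR1 cells from at most 8.71 to at least 10.1 CPM. The sum of 7 two-cell-like markers ran from 20.1 to 29.4 CPM in untreated PDS5AB cells and from 50.8 to 69.4 CPM after auxin, against at most 10.6 CPM in every other group. In TIR1 cells, where 8 of the 10 targets were called higher, the two-cell-like sum was at most 2.48 CPM before and at most 1.59 CPM after auxin. There the sum of 8 trophoblast markers rose from at most 94.4 to at least 136 CPM. That sum fell from at least 85.6 to at most 44.4 CPM in WAPL cells, fell in both NIPBL-FKBP lines and overlapped in PDS5AB cells. The sum of 7 neural markers fell from at least 196 to at most 173 CPM in TIR1 cells. It rose in PDS5AB and PDS5AB-NIPBL cells and overlapped in the other lines. The part of the marker shifts in the target changes was not tested. In bulk RNA, fewer cells of a type and less RNA per cell cannot be told apart.

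Most of the 10 targets were higher after auxin in the line without a degron, and all 10 were in PDS5AB cells. In TIR1 cells 8 of the 10 were called higher and none lower, with a median log2 change of 0.43, against 19.9% of all genes called (10.4% higher, 9.59% lower) and a median of -0.01 over all genes. In PDS5AB cells all 10 were called higher (median 0.74), against 46% of all genes (25.8% higher, 20.2% lower). In WAPL cells 5 were called higher and none lower (median 0.29), against 32.8% (17% higher, 15.8% lower). In PDS5AB-NIPBL cells 9 were called higher and none lower (median 0.64), against 19.5% (11.4% higher, 8.06% lower). In WAPL-NIPBL cells 2 were called higher and none lower (median 0.21), against 8.57% (5.11% higher, 3.45% lower). Treated and untreated libraries did not overlap for 8 targets in TIR1 (39.2% of all genes), 10 in PDS5AB (52.8%), 5 in WAPL cells (40.2%), 9 in PDS5AB-NIPBL cells (33.4%) and 5 in WAPL-NIPBL cells (27%). Over the 50 values of 10 genes in 5 lines, 47 were above 0 and 34 were called, all of them higher. The TIR1 count fell to 5 without TIR1 untreated replicate 2, and the genes called in all fell from 3962 to 2689. With replicate number as a block, which pairs the libraries of the 4 degron lines, the WAPL count became 7 through Bbc3 (adjusted p = 0.012, edgeR) and Zmat3 (0.0357), while the share of all genes called rose to 45.1%. The WAPL-NIPBL count became 7 in the same fit, through Mdm2 (0.0322), Btg2 (0.0123), Perp (0.0135), Trp53inp1 (0.000373) and Sesn1 (0.00109), and the share of all genes called to 20.9%. Without the block the WAPL-NIPBL count of 2 fell to 0 when WAPL-NIPBL treated replicate 1, untreated replicate 2 or untreated replicate 3 was left out, where the genes called in all fell from 1702 to 1263, 1324 and 1147.

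**Figure D1:**
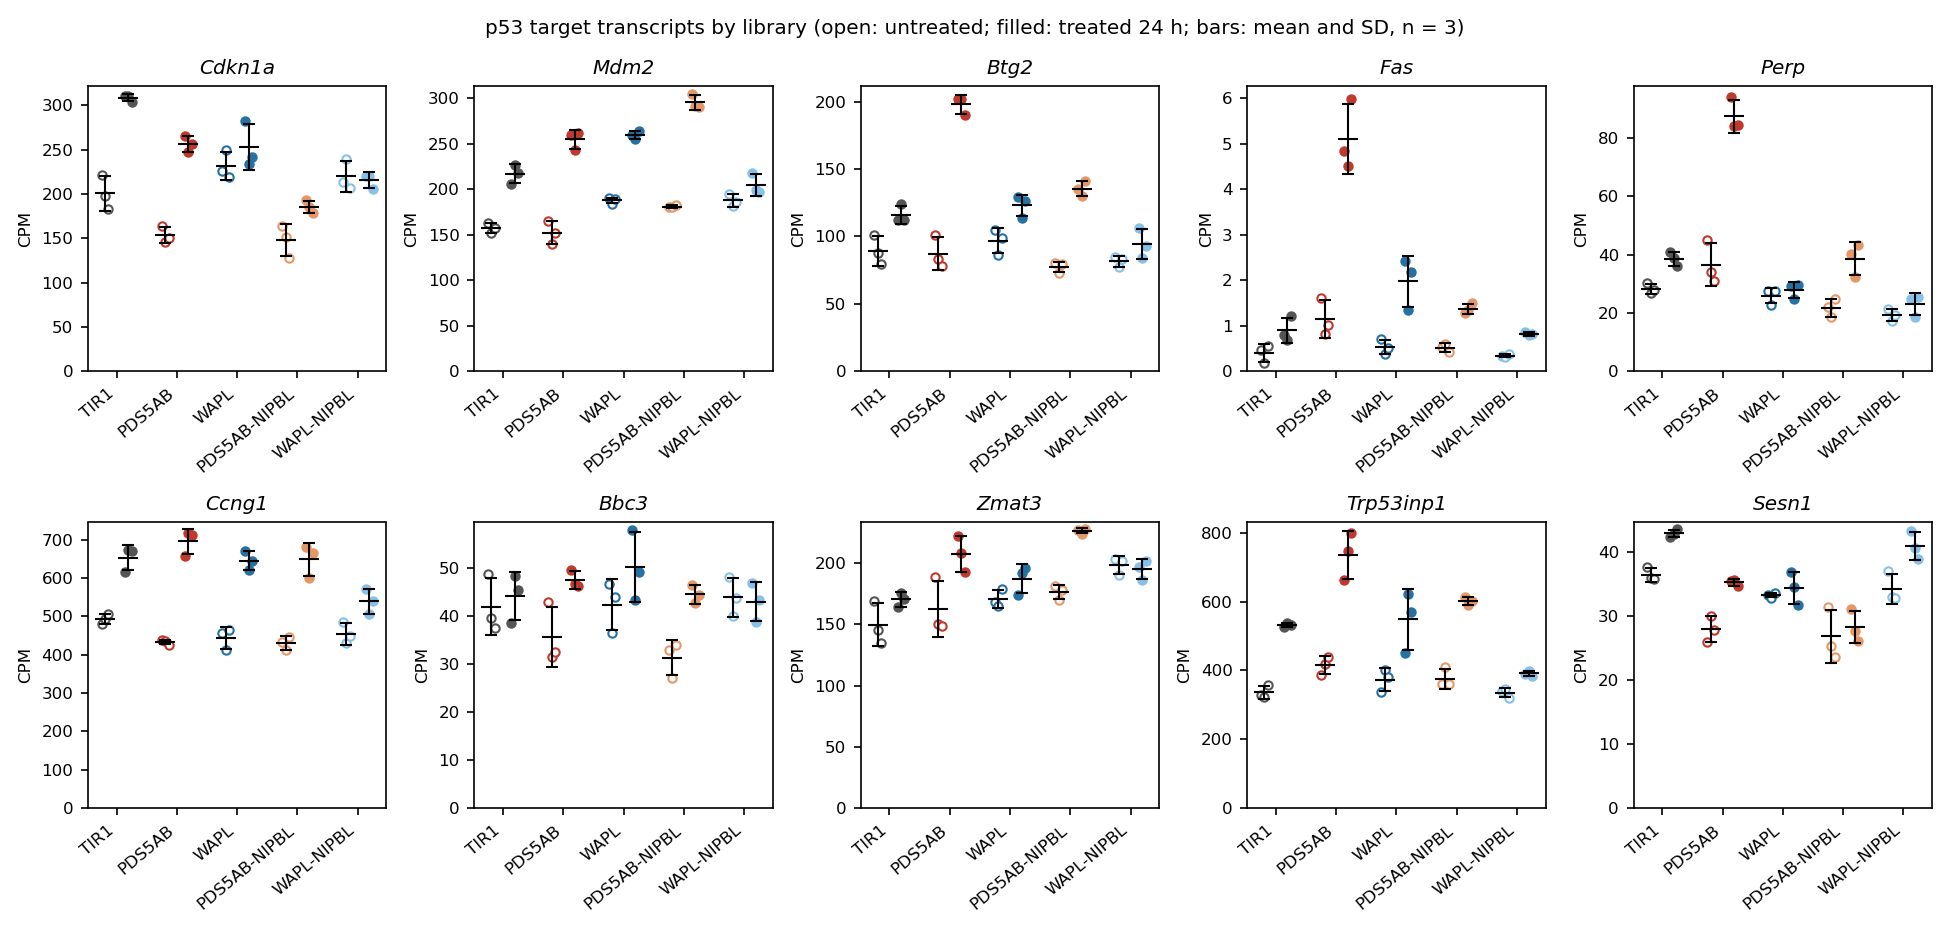
CPM of each of the 10 p53 targets (vertical axis, linear from 0) in the 30 libraries, by line (horizontal axis). Open points are untreated and filled points treated libraries, and bars are mean and SD of 3. Btg2, Perp and Fas stand highest in auxin-treated PDS5AB cells, Cdkn1a in auxin-treated TIR1 cells.

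Among the genes of cell cycle arrest, Cdkn1a, which encodes the cyclin-dependent kinase inhibitor p21, was called higher in 3 of the 5 lines. It is annotated at chromosome 17, 29090976 to 29100727, plus strand (ENSMUSG00000023067.14, GRCm38). Its 3 untreated TIR1 libraries held 222, 198 and 183 CPM and the auxin-treated ones 311, 311 and 304 CPM. In PDS5AB cells 164, 146 and 151 CPM became 266, 248 and 256 CPM. The treated libraries lay above all untreated ones in both lines. In WAPL cells the untreated values of 226, 250 and 219 CPM overlapped with the treated values of 283, 234 and 242 CPM. WAPL-NIPBL cells also overlapped, with 214, 240 and 207 CPM untreated and 221, 221 and 206 CPM treated. In PDS5AB-NIPBL cells 164, 152 and 128 CPM became 193, 185 and 179 CPM, which do not overlap.

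Cdkn1a was called higher in TIR1 (0.62, SE 0.0828, adjusted p = 3.37e-06), PDS5AB (0.74, SE 0.0831, adjusted p = 2e-08) and PDS5AB-NIPBL cells (0.33, SE 0.0833, adjusted p = 0.00505). The last call was lost without PDS5AB-NIPBL untreated replicate 3 (adjusted p = 0.0711). In WAPL cells its change was 0.13 (SE 0.0825, adjusted p = 0.259) and in WAPL-NIPBL cells -0.03 (SE 0.0827, adjusted p = 0.893). The change in WAPL cells was smaller than in TIR1 by 0.49 (difference -0.49, SE 0.117, adjusted p = 0.0025) and that in WAPL-NIPBL cells differed from TIR1 by -0.65 (SE 0.117, adjusted p = 0.000619). PDS5AB exceeded WAPL by 0.61 (SE 0.117, adjusted p = 0.000536). These 3 differences held in each of 17 alternative fits. PDS5AB-NIPBL differed from PDS5AB by -0.41 (SE 0.117, adjusted p = 0.0228), a call that was lost in 7 of 17 alternatives, each of them without a single library, with adjusted p up to 0.0922. Those 7 libraries were PDS5AB untreated replicates 2 and 3, PDS5AB auxin replicate 1, PDS5AB-NIPBL untreated replicates 1 and 2, and PDS5AB-NIPBL treated replicates 2 and 3. The difference between PDS5AB and TIR1 was 0.12 (SE 0.117, adjusted p = 0.492). An antisense gene, AC167363.2, covers 7.68% of the Cdkn1a exon bases. Fragments over those bases cannot be assigned by strand here and may be missing from the counts. The other 9 targets share no exon bases with another gene.

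Btg2, an antiproliferative member of the BTG/TOB family (chromosome 1, 134075170 to 134079120, minus strand, ENSMUSG00000020423.6), moved most in PDS5AB cells. There 101, 83.3 and 77.8 CPM became 202, 202 and 190 CPM. In TIR1 cells 101, 87.8 and 79.3 CPM became 112, 124 and 112 CPM. In PDS5AB-NIPBL cells 80.1, 73.1 and 79.3 CPM became 135, 130 and 141 CPM. The auxin-treated PDS5AB libraries stood above every other library of the series, whereas the untreated groups of PDS5AB and TIR1 overlapped. The change was 1.18 in PDS5AB (SE 0.0928, adjusted p = 2.4e-11), 0.81 in PDS5AB-NIPBL cells (SE 0.0932, adjusted p = 1.9e-07), 0.38 in TIR1 (SE 0.0923, adjusted p = 0.00392), 0.35 in WAPL cells (SE 0.0922, adjusted p = 0.00397) and 0.21 in WAPL-NIPBL cells (SE 0.0929, adjusted p = 0.19). The PDS5AB change exceeded that of TIR1 by 0.8 (SE 0.13, adjusted p = 3.17e-05) and that of WAPL by 0.83 (SE 0.13, adjusted p = 4.68e-05), and both differences were called in all 17 alternatives. PDS5AB-NIPBL exceeded TIR1 by 0.43 (SE 0.131, adjusted p = 0.0342). That call was lost without any of 8 single libraries, TIR1 untreated replicate 1 or 2, TIR1 auxin replicate 1 or 3, PDS5AB-NIPBL untreated replicate 2 or 3, or PDS5AB-NIPBL treated replicate 1 or 3, with adjusted p up to 0.145.

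Ccng1, which encodes the atypical cyclin G1 (chromosome 11, 40748552 to 40755311, minus strand, ENSMUSG00000020326.7), was called higher in all 5 lines. It went from 492 ± 13.1 to 653 ± 33 CPM (SD, n = 3) in TIR1, from 433 ± 6.35 to 695 ± 33.6 in PDS5AB, from 444 ± 29.3 to 645 ± 24.8 in WAPL cells, from 430 ± 17.4 to 649 ± 42.9 in PDS5AB-NIPBL cells and from 455 ± 28.3 to 538 ± 33.5 in WAPL-NIPBL cells. Treated and untreated libraries did not overlap in any line. The changes were 0.41, 0.68, 0.54, 0.59 and 0.24 in the same order (SE 0.0644 to 0.0646), and the adjusted p of the last was 0.0134. The WAPL-NIPBL call was lost without WAPL-NIPBL treated replicate 1, untreated replicate 2 or untreated replicate 3 (adjusted p up to 0.0752). PDS5AB exceeded TIR1 by 0.28 (SE 0.091, adjusted p = 0.024), and this was lost in 6 of 17 alternatives: without a filter on low counts and without PDS5AB auxin replicate 2, PDS5AB untreated replicate 3, PDS5AB auxin replicate 3, TIR1 untreated replicate 3 or TIR1 auxin replicate 1 (adjusted p up to 0.125).

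Mdm2, the feedback ubiquitin ligase (chromosome 10, 117688875 to 117710758, minus strand, ENSMUSG00000020184.15), reached its highest level in treated PDS5AB-NIPBL cells. There 180, 180 and 183 CPM became 305, 291 and 290 CPM. In PDS5AB cells 165, 140 and 152 CPM became 259, 243 and 262 CPM, and in WAPL cells 190, 184 and 189 CPM became 259, 255 and 264 CPM. The TIR1 values were 163, 152 and 157 CPM before and 206, 227 and 218 CPM after auxin, and those of WAPL-NIPBL 195, 182 and 186 CPM before and 218, 199 and 197 CPM after treatment. Treated libraries stood above the untreated ones of their line in all 5 lines. The changes were 0.74 in PDS5AB (SE 0.0591), 0.71 in PDS5AB-NIPBL cells (SE 0.0592), 0.47 in WAPL cells (SE 0.0589) and 0.46 in TIR1 (SE 0.059), with adjusted p of 1.57e-06 or lower, and 0.13 in WAPL-NIPBL cells (SE 0.059, adjusted p = 0.213).

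The WAPL-NIPBL change of Mdm2 was smaller than that of WAPL (difference -0.34, SE 0.0833, adjusted p = 0.0123) and than that of TIR1 (difference -0.34, SE 0.0834, adjusted p = 0.0108). The former was lost without the filter on low counts (adjusted p = 0.0561), and the latter held in all 17 alternatives. PDS5AB exceeded TIR1 by 0.28 (SE 0.0833, adjusted p = 0.0136) and WAPL by 0.28 (SE 0.0832, adjusted p = 0.0257). The first of these was lost without the filter and without TIR1 untreated replicate 1, TIR1 auxin replicate 1, PDS5AB untreated replicate 2, or PDS5AB auxin replicate 1 or 3 (adjusted p up to 0.159). The second was lost in 12 of 17 alternatives, among them the omission of any 1 of the 6 WAPL libraries, of PDS5AB untreated replicate 2 or 3 and of PDS5AB auxin replicate 1 or 3 (adjusted p up to 0.192). PDS5AB-NIPBL and PDS5AB differed by -0.03 (SE 0.0833, adjusted p = 0.855).

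**Figure D2:**
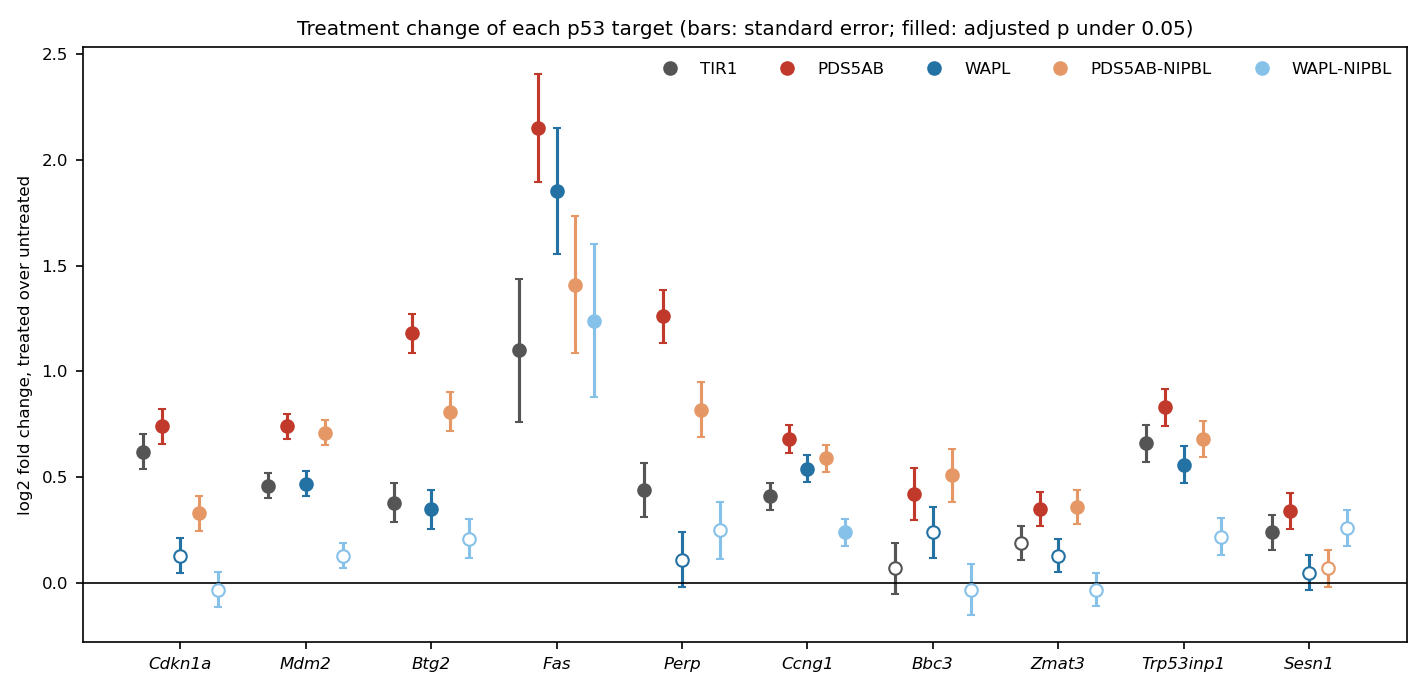
Log2 fold change of treated over untreated cells (vertical axis) for each p53 target in each of the 5 lines (colours), with standard errors. Filled points have an adjusted p under 0.05. Fas is filled in all 5 lines, with the largest value of 2.15 in PDS5AB cells, and 3 of the 50 points lie below 0, all in WAPL-NIPBL cells.

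Genes of cell death responded unevenly. Fas, the death receptor of the tumour necrosis factor receptor superfamily (chromosome 19, 34290666 to 34327772, plus strand, ENSMUSG00000024778.13), was the scarcest target, with 4 to 183 counts per library. Its untreated PDS5AB libraries held 1.62, 0.826 and 1.02 CPM and the treated ones 4.85, 4.51 and 5.98 CPM. The untreated TIR1 libraries held 0.478, 0.176 and 0.567 CPM and the treated ones 0.79, 0.701 and 1.22 CPM. In WAPL cells 0.71, 0.388 and 0.512 CPM became 2.42, 1.35 and 2.18 CPM. The PDS5AB-NIPBL values went from 0.538, 0.609 and 0.426 to 1.28, 1.36 and 1.5 CPM, and the WAPL-NIPBL values from 0.332, 0.317 and 0.384 to 0.865, 0.796 and 0.813 CPM. The treated PDS5AB libraries stood above all others in the series, and groups did not overlap within any line.

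The change of Fas was 2.15 in PDS5AB (SE 0.254, adjusted p = 4.83e-08), 1.85 in WAPL cells (SE 0.298, adjusted p = 1.36e-05), 1.41 in PDS5AB-NIPBL cells (SE 0.323, adjusted p = 0.00192), 1.24 in WAPL-NIPBL (SE 0.363, adjusted p = 0.0279) and 1.1 in TIR1 cells (SE 0.337, adjusted p = 0.0203). The TIR1 call was lost without TIR1 untreated replicate 2 or TIR1 auxin replicate 3 (adjusted p up to 0.137). The WAPL-NIPBL call was lost without any 1 of the 6 WAPL-NIPBL libraries (adjusted p up to 0.0966). No difference between lines was called for Fas. PDS5AB against TIR1 was 1.05 with an SE of 0.437 (adjusted p = 0.0746), and it was called in 4 of 17 alternatives. Fas had 4 to 183 counts per library.

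Perp, a tetraspan membrane protein of desmosomes and of p53-dependent apoptosis (chromosome 10, 18845020 to 18857073, plus strand, ENSMUSG00000019851.8), differed between lines. In PDS5AB cells 44.9, 34 and 30.8 CPM became 93.9, 83.9 and 84.3 CPM. WAPL cells held 27.4, 22.9 and 27.4 CPM before and 29.3, 24.8 and 29.7 CPM after auxin. TIR1 cells went from 30.2, 27 and 27.8 to 40.9, 38.7 and 36.1 CPM, and PDS5AB-NIPBL cells from 22.1, 18.6 and 24.8 to 40.2, 32.5 and 43.2 CPM. The WAPL groups overlapped, and treated PDS5AB cells stood above every other library. The change was 1.26 in PDS5AB (SE 0.126, adjusted p = 2.56e-09), 0.82 in PDS5AB-NIPBL cells (SE 0.132, adjusted p = 3.01e-05), 0.44 in TIR1 (SE 0.128, adjusted p = 0.0135), 0.11 in WAPL cells (SE 0.13, adjusted p = 0.573) and 0.25 in WAPL-NIPBL cells (SE 0.134, adjusted p = 0.31). The TIR1 call was lost without TIR1 untreated replicate 2 or TIR1 auxin replicate 1 (adjusted p up to 0.059). PDS5AB exceeded TIR1 by 0.81 (SE 0.179, adjusted p = 0.00109) and WAPL by 1.15 (SE 0.181, adjusted p = 5.18e-05), both called in all 17 alternatives.

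Trp53inp1, which encodes a stress protein of p53 activation and autophagy (chromosome 4, 11156431 to 11174379, plus strand, ENSMUSG00000028211.11), was among the most abundant targets. In TIR1 cells 328, 322 and 358 CPM became 525, 537 and 531 CPM. In PDS5AB cells 388, 420 and 438 CPM became 662, 746 and 800 CPM, and in WAPL cells 336, 401 and 380 CPM became 451, 623 and 571 CPM. In WAPL-NIPBL cells 339, 346 and 320 CPM became 389, 399 and 385 CPM. Treated libraries stood above untreated ones in all 5 lines. The change was 0.66 in TIR1 (SE 0.0861), 0.83 in PDS5AB (SE 0.0862), 0.56 in WAPL cells (SE 0.086) and 0.68 in PDS5AB-NIPBL cells (SE 0.0862), with adjusted p of 6.8e-06 or lower, and 0.22 in WAPL-NIPBL cells (SE 0.086, adjusted p = 0.11). WAPL-NIPBL differed from TIR1 by -0.44 (SE 0.121, adjusted p = 0.0252), a call lost without TIR1 untreated replicate 1 or 2, WAPL-NIPBL untreated replicate 2 or WAPL-NIPBL treated replicate 3 (adjusted p up to 0.0691).

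Bbc3 encodes PUMA, the BH3-only protein that sets off mitochondrial apoptosis (chromosome 7, 16308393 to 16318205, plus strand, ENSMUSG00000002083.13). It was called higher in PDS5AB (35.6 ± 6.33 to 47.5 ± 1.82 CPM, 0.42, SE 0.122, adjusted p = 0.00587) and PDS5AB-NIPBL cells (31.3 ± 3.68 to 44.5 ± 1.91 CPM, 0.51, SE 0.125, adjusted p = 0.00373). Its change was 0.07 in TIR1 (SE 0.122, adjusted p = 0.736), 0.24 in WAPL cells (SE 0.122, adjusted p = 0.131) and -0.03 in WAPL-NIPBL cells (SE 0.122, adjusted p = 0.93). In those 3 lines treated and untreated libraries overlapped. No difference between lines was called for Bbc3 (the largest, PDS5AB-NIPBL against TIR1, was 0.43, SE 0.174, adjusted p = 0.115). That difference was called with the replicate block (adjusted p = 0.00532) and without a filter on low counts (0.0346). PDS5AB against TIR1 was 0.35 (adjusted p = 0.144), and it was called with the block (0.0117) and without PDS5AB untreated replicate 1 (0.5, adjusted p = 0.027).

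Zmat3, an RNA-binding zinc finger protein (chromosome 3, 32334792 to 32366014, minus strand, ENSMUSG00000027663.12), had the same pattern of calls. It rose from 163 ± 22.7 to 207 ± 14.6 CPM in PDS5AB (0.35, SE 0.0791, adjusted p = 0.000512) and from 177 ± 5.44 to 226 ± 2.48 CPM in PDS5AB-NIPBL cells (0.36, SE 0.0793, adjusted p = 0.00135). In TIR1 cells it stood at 149 ± 17.5 and 170 ± 6.07 CPM (0.19, SE 0.0793, adjusted p = 0.0945), and the change was called with the replicate block (adjusted p = 0.00378) and without TIR1 untreated replicate 1 (0.31, adjusted p = 0.00966). Sesn1, a sestrin that restrains mTORC1 and oxidative stress (chromosome 10, 41809935 to 41908424, plus strand, ENSMUSG00000038332.13), was the one target called in TIR1 and PDS5AB cells but not in PDS5AB-NIPBL cells. Its untreated and treated levels were 36.5 ± 1.05 and 42.9 ± 0.616 CPM in TIR1 (0.24, SE 0.0834, adjusted p = 0.0438), 28 ± 2.04 and 35.3 ± 0.569 CPM in PDS5AB (0.34, SE 0.0845, adjusted p = 0.00157) and 26.8 ± 4.09 and 28.3 ± 2.54 CPM in PDS5AB-NIPBL cells (0.07, SE 0.0867, adjusted p = 0.637). In WAPL-NIPBL cells Sesn1 stood at 34.3 ± 2.41 and 41 ± 2.18 CPM without overlap (0.26, SE 0.0842, adjusted p = 0.0517), and it was called in 5 of 11 alternatives. WAPL cells held 33.2 ± 0.376 and 34.4 ± 2.56 CPM (0.05, SE 0.0842, adjusted p = 0.715). The Sesn1 difference between PDS5AB-NIPBL and PDS5AB was -0.26 (SE 0.121, adjusted p = 0.181), and it was called with the replicate block (adjusted p = 0.0248). The TIR1 call of Sesn1 was lost in 6 of 11 alternatives (adjusted p up to 0.121), among them the omission of any TIR1 library but untreated replicate 1.

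The differences between lines were read against the share of all genes for which the same test was called. Between PDS5AB and TIR1, 4 targets had a larger change in PDS5AB and none a smaller one, against 26.3% of all genes called (13.9% larger, 12.4% smaller). Between PDS5AB and WAPL, 4 were larger in PDS5AB and none smaller, against 12.5% (7.38% larger, 5.11% smaller). Between WAPL and TIR1, 1 was smaller in WAPL and none larger, against 20.7% (10.9% smaller, 9.86% larger). Between PDS5AB-NIPBL and TIR1, 1 was larger and none smaller, against 10.1% (5.28% larger, 4.81% smaller). Between WAPL-NIPBL and TIR1, 3 were smaller and none larger, against 7.04% (3.94% smaller, 3.1% larger). The 4 comparisons with TIR1 share its 6 libraries, whose auxin effect cannot be told apart from the number range. PDS5AB-NIPBL against PDS5AB gave 1 smaller change, against 9.46% (4.48% smaller, 4.97% larger), and WAPL-NIPBL against WAPL gave 1 smaller change, against 5.19% (2.16% smaller, 3.03% larger). In this fit a count of 1 in 10 is not read as a result about the 10 genes as a group.

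With the replicate block, the targets called became 8 for PDS5AB against WAPL, adding Ccng1, Zmat3, Trp53inp1 and Sesn1, while 27.3% of all genes were called. They became 4 for PDS5AB-NIPBL against PDS5AB, adding Btg2 (adjusted p = 0.000589), Perp (0.000362) and Sesn1, all with smaller changes in PDS5AB-NIPBL cells, and 3 for WAPL-NIPBL against WAPL, adding Ccng1 (0.000152) and Trp53inp1 (0.000397) with smaller changes in WAPL-NIPBL cells. The shares of all genes called in these blocked comparisons were 24.4% and 15.5%. Against TIR1, whose libraries are not paired by number, the blocked count for PDS5AB became 7 (40.2% of all genes called), adding larger changes of Fas (adjusted p = 0.0336), Bbc3 and Trp53inp1 (0.0387). For PDS5AB-NIPBL it became 6 (25.1% of all genes), adding larger changes of Mdm2 (adjusted p = 0.00263), Perp (0.00307), Ccng1 (0.00984) and Bbc3 and a smaller one of Cdkn1a (0.00664). For WAPL it became 3 (35.4%), adding a smaller change of Perp (adjusted p = 0.00482) and a larger one of Ccng1 (0.0494), and for WAPL-NIPBL 5 (22.3%), adding smaller changes of Ccng1 (0.0254) and Zmat3 (0.0295). The count for PDS5AB against TIR1 was 7 without PDS5AB untreated replicate 1, and 2 without PDS5AB auxin replicate 3 or TIR1 auxin replicate 1. Over all genes, 5224 were called with every library, and 5337, 4914 and 4951 in those 3 fits. PDS5AB untreated replicate 1 was the highest of its group for 8 of the 10 targets. This was not particular to that library. Replicate 1 was highest for 7 targets in untreated TIR1 and in both WAPL-NIPBL groups, and replicate 2 for 7 in auxin-treated TIR1 cells.

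**Figure D3:**
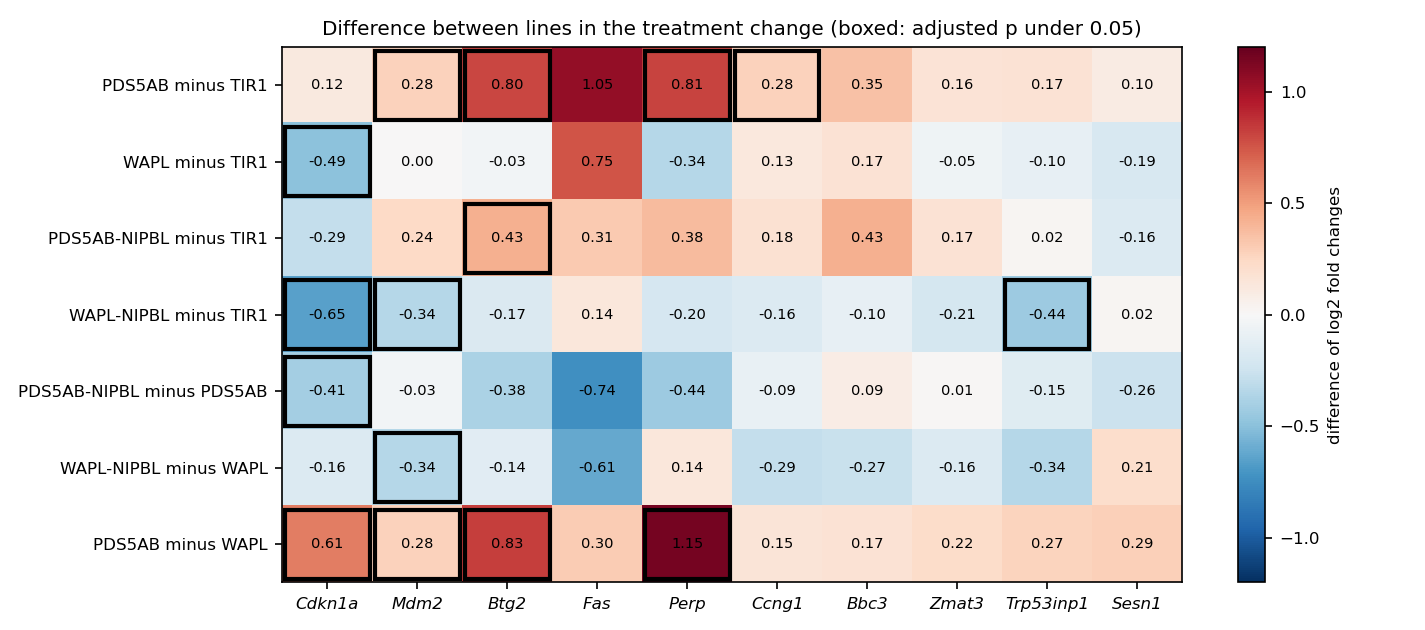
Difference between 2 lines in the log2 treatment change (colour and printed value) for each p53 target (columns) and each of 7 pairs of lines (rows). Boxes mark an adjusted p under 0.05. The values of 0.8 or more that are boxed belong to Btg2 and Perp, in PDS5AB against TIR1 and against WAPL.

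Untreated levels also differed between lines. In untreated PDS5AB cells, whose libraries are in the number range of untreated TIR1, 3 targets were higher than in TIR1 and 3 lower, against 32% of all genes called (15.5% higher, 16.5% lower). Higher were Fas (1.45, SE 0.333, adjusted p = 0.000985), Perp (0.37, SE 0.129, adjusted p = 0.0287) and Trp53inp1 (0.3, SE 0.086, adjusted p = 0.00637). Lower were Cdkn1a (-0.39, SE 0.083, adjusted p = 0.000475), Sesn1 (-0.38, SE 0.0848, adjusted p = 0.000672) and Ccng1 (-0.19, SE 0.0644, adjusted p = 0.0261). The Perp call was lost without PDS5AB untreated replicate 1, TIR1 untreated replicate 2 or TIR1 untreated replicate 3 (adjusted p up to 0.289). The Ccng1 call was lost in 5 of 11 alternatives, among them the omission of TIR1 untreated replicate 2 or 3 or of PDS5AB untreated replicate 3 (adjusted p up to 0.135). With a block that matches replicate numbers between the lines, Bbc3 (-0.23, adjusted p = 0.00504) and Zmat3 (0.13, 0.0246) were called as well. Without PDS5AB untreated replicate 1, Bbc3 was called (-0.39, adjusted p = 0.0172) and Zmat3 was not (0, adjusted p = 0.99).

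The other 3 untreated groups carry numbers from 25 upward, so line and number range cannot be told apart in their comparison with untreated TIR1. In PDS5AB-NIPBL cells 2 targets were higher and 5 lower, against 34.3% of all genes (16.5% higher, 17.8% lower). Cdkn1a (-0.44, SE 0.0832, adjusted p = 0.000125) and Sesn1 (-0.44, SE 0.0855, adjusted p = 0.00017) were lower there too, as were Perp, Ccng1 and Bbc3 (-0.37, -0.19 and -0.42), and Mdm2 (0.2) and Zmat3 (0.24) were higher. Without PDS5AB-NIPBL untreated replicate 2 the count fell from 7 to 4, as Perp, Ccng1 and Bbc3 lost their calls, and the genes called in all fell from 6809 to 5620. Cdkn1a, Mdm2 and Sesn1 were called in all 11 alternatives. The Perp call was also lost without PDS5AB-NIPBL untreated replicate 1 or TIR1 untreated replicate 1 or 3 (adjusted p up to 0.187), and the Bbc3 call without TIR1 untreated replicate 1 (0.0926). The Zmat3 call was lost without PDS5AB-NIPBL untreated replicate 1 or TIR1 untreated replicate 2 or 3 (adjusted p up to 0.136). The Ccng1 call was lost in 5 of 11 alternatives, among them the replicate block (adjusted p = 0.0803), no filter on low counts and the compared groups alone. The block here matches replicate numbers between lines, a pairing that was not checked. In WAPL-NIPBL cells Mdm2 (0.25) and Zmat3 (0.41) were higher and Perp lower (-0.55, SE 0.134, adjusted p = 0.00244), against 28% (13.4% higher, 14.6% lower). In WAPL cells Mdm2 alone was called (0.25, SE 0.0591, adjusted p = 0.00386), against 14% (6.62% higher, 7.39% lower), and without TIR1 untreated replicate 1 Cdkn1a and Zmat3 were called as well. All 4 comparisons share the untreated TIR1 libraries.

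Levels of different genes were compared per kilobase of exon (FPKM, from the gene length in the deposited table). Ccng1 was the most abundant target in every group, from 123 to 198 FPKM in the group means, and Fas the least, from 0.167 to 2.48 FPKM. Trp53inp1 ran from 51.7 to 114, Cdkn1a from 41.7 to 86.9, Btg2 from 28.3 to 72.1 and Mdm2 from 30 to 58.1 FPKM. Perp (9.93 to 44.8), Bbc3 (14.7 to 23.6), Zmat3 (13.1 to 19.8) and Sesn1 (6.74 to 10.8) were lower. The ratio of the highest to the lowest group mean was 14.9 for Fas and 4.51 for Perp, from 1.94 to 2.55 for Btg2, Trp53inp1, Cdkn1a and Mdm2, and from 1.52 to 1.62 for Ccng1, Bbc3, Sesn1 and Zmat3.

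The order of the 10 groups was not shared. Treated PDS5AB cells came highest for 5 targets (Btg2, Fas, Perp, Ccng1 and Trp53inp1), and their library range overlapped with that of the next group only for Ccng1. Treated PDS5AB-NIPBL cells came highest for Mdm2 and Zmat3, auxin-treated TIR1 cells for Cdkn1a and Sesn1, and auxin-treated WAPL cells for Bbc3. For Bbc3 the ranges of all neighbours in the order overlapped, and for Sesn1 those of auxin-treated TIR1 and treated WAPL-NIPBL cells. For Cdkn1a, auxin-treated TIR1 cells (309 ± 3.78 CPM) stood apart from PDS5AB auxin (257 ± 9.04 CPM), and from there to treated PDS5AB-NIPBL cells (186 ± 6.72 CPM) each group overlapped with the next.

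Across the 10 group means of log2 CPM, Btg2 and Trp53inp1 ran most alike (Pearson's r = 0.94), followed by Fas and Trp53inp1 (0.92). Cdkn1a was closest to Sesn1 (0.83), and Sesn1 and Zmat3 had the lowest value (-0.11). These describe 10 points that share lines and are given without a test. Among 12932 candidate genes, Gm10134 (0.966), Gbgt1 (0.951) and Prtg (0.933) were most like Cdkn1a. Nt5dc3 (0.968), Bcl9l (0.963) and Hipk3 (0.96) were most like the mean standardised profile of the 10 targets. That profile was highest in PDS5AB auxin (1.39 SD units), then in WAPL auxin (0.62), treated PDS5AB-NIPBL (0.6) and TIR1 auxin (0.56), and lowest in untreated PDS5AB-NIPBL cells (-1.04).

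The p53 gene and its regulators are given beside the targets. Trp53 itself fell in PDS5AB (389 ± 93.4 to 282 ± 52.4 CPM, -0.46, SE 0.118, adjusted p = 0.00175) and WAPL cells (442 ± 23.9 to 330 ± 37.4 CPM, -0.42, SE 0.117, adjusted p = 0.00615). The PDS5AB libraries of Trp53 overlapped between treated and untreated cells. Its change was -0.19 in TIR1 (adjusted p = 0.264), -0.25 in PDS5AB-NIPBL cells (adjusted p = 0.141) and -0.18 in WAPL-NIPBL cells (adjusted p = 0.423), and no difference from TIR1 was called for it. These are transcript levels; p53 is regulated mainly as a protein, which was not measured.

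Mdm4, the Mdm2 relative that inhibits p53, was called higher in TIR1 cells (304 ± 23.4 to 430 ± 20.1 CPM, 0.5, SE 0.118, adjusted p = 0.00284), with changes of 0.06 to 0.3 in the other lines that were not called. Ppm1d, a phosphatase that switches the response off and a p53 target itself, rose in PDS5AB (35.6 ± 1.94 to 55.8 ± 2.88 CPM, 0.65, SE 0.0635, adjusted p = 1.66e-09) and WAPL cells (34.4 ± 1.22 to 40.1 ± 1.75 CPM, 0.22, SE 0.0641, adjusted p = 0.00769). In TIR1 it stood at 38.3 ± 1.83 and 38.9 ± 1.3 CPM. The PDS5AB change of Ppm1d exceeded that of TIR1 by 0.62 (SE 0.0899, adjusted p = 6.51e-06) and that of WAPL by 0.42 (SE 0.0901, adjusted p = 0.00161), and the change in PDS5AB-NIPBL was smaller than in PDS5AB (-0.49, SE 0.0904, adjusted p = 0.000621). Trp73, a p53 family member, which shares 5.06% of its exon bases with an antisense gene, rose in the 4 degron lines, by 0.83 in PDS5AB, 1.16 in WAPL cells, 1.19 in PDS5AB-NIPBL cells and 0.75 in WAPL-NIPBL cells. Of the 20 regulators listed, 3 were higher and 1 lower in TIR1, 4 and 7 in PDS5AB, 6 and 5 in WAPL cells, 2 and 3 in PDS5AB-NIPBL cells and 1 and 2 in WAPL-NIPBL cells. That is 20% of the list in TIR1 and 25% in PDS5AB-NIPBL cells, against 19.9% and 19.5% of all genes. It is 55% in both PDS5AB and WAPL cells, against 46% and 32.8%, and 15% in WAPL-NIPBL cells, against 8.57%. Other regulators named by the rule were Crebbp (0.31 in TIR1), a coactivator, Cdkn2a (0.82 in WAPL), the source of the Mdm2 inhibitor ARF, and the deacetylase Sirt1 (-0.46 in PDS5AB-NIPBL cells and -0.38 in WAPL-NIPBL cells).

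A further 38 targets of p53 were counted the same way. In TIR1 cells 11 were called higher and 2 lower (median 0.07), in PDS5AB 20 and 3 (0.3), in WAPL 13 and 8 (0.19), in PDS5AB-NIPBL cells 20 and 1 (0.37) and in WAPL-NIPBL cells 4 and 2 (0.09). The shares called were 34.2% in TIR1 (19.9% of all genes), 60.5% in PDS5AB cells (46%), 55.3% in WAPL cells (32.8%), 55.3% in PDS5AB-NIPBL cells (19.5%) and 15.8% in WAPL-NIPBL cells (8.57%). The medians over all genes lay between -0.01 and 0.04. Plk2, a polo-like kinase, went from 66.5 ± 2.91 to 122 ± 7.85 CPM in TIR1 (0.88, adjusted p = 2.14e-08) and from 60.2 ± 7.31 to 127 ± 8.62 CPM in PDS5AB-NIPBL cells (1.08, adjusted p = 2.85e-10). Rrm2b, the p53-inducible subunit of ribonucleotide reductase, rose by 0.69 in TIR1 cells. It shares 8.04% of its exon bases with a gene on the opposite strand, and Plk3 and Pml share 3.32% and 1.88%. Ddit4, an inhibitor of mTORC1 (1.38), and Dcxr, a carbonyl reductase (1.26), had the largest changes in PDS5AB cells. In WAPL cells the largest were downward, in the kinase gene Plk3 and in Pml, which organises nuclear bodies (both -0.71), and in WAPL-NIPBL cells Plk2 rose (0.51, adjusted p = 0.000166) and Epha2, a receptor tyrosine kinase, fell by 0.47 on the log2 scale (adjusted p = 0.000236).

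**Figure D4:**
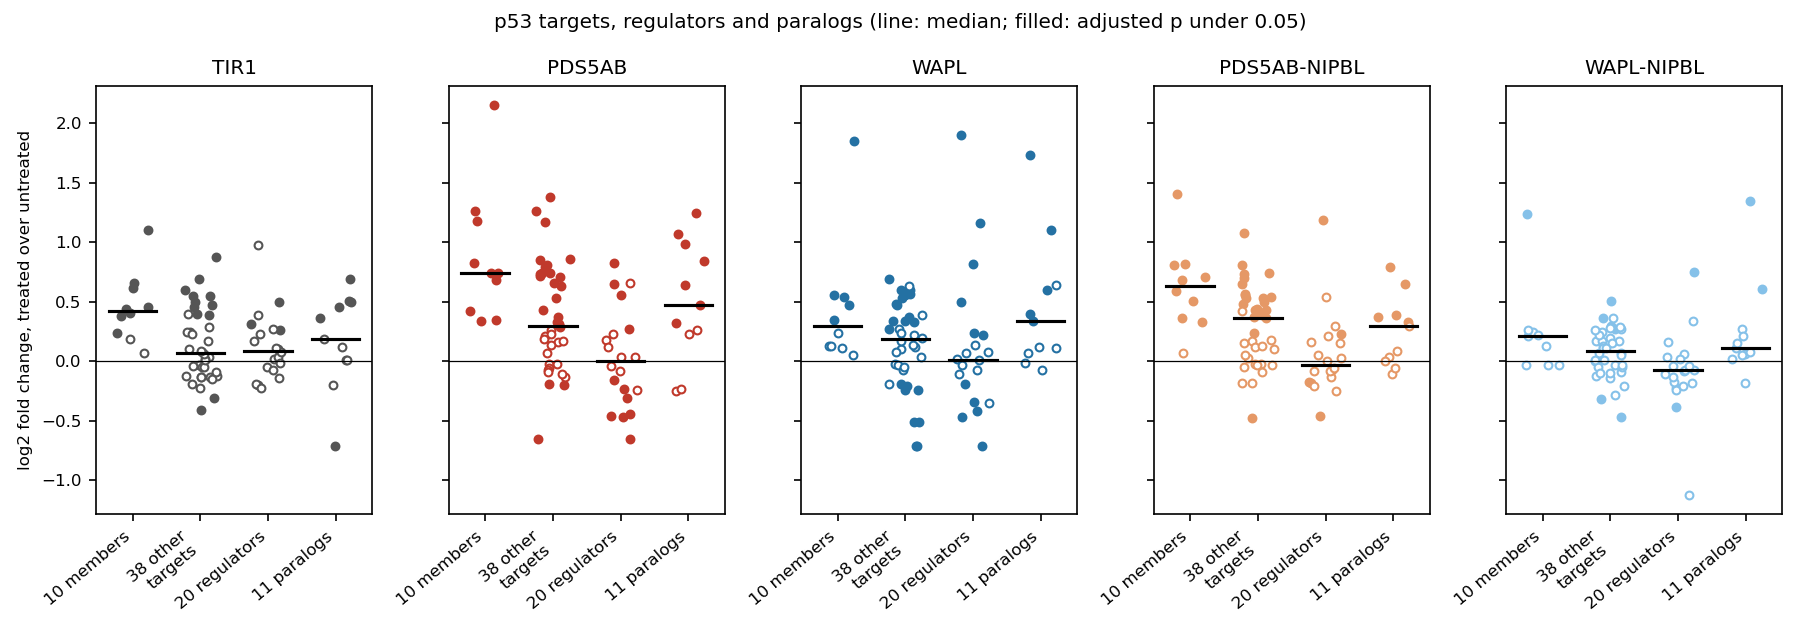
Log2 fold change of treated over untreated cells (vertical axis) for the 10 p53 targets, 38 other targets, 20 regulators and 11 paralogs of the targets, in each line (panels). Filled points have an adjusted p under 0.05 and horizontal lines are medians. The median of the 10 targets lies above that of the 38 others in every panel, from 0.21 against 0.09 in WAPL-NIPBL to 0.74 against 0.3 in PDS5AB cells. The lists were chosen with earlier results of these data known, so this order of medians is not a test. Mdm4 is shown both as a regulator and as a paralog, and Sesn2 both as an other target and as a paralog.

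Of 11 paralogs of the 10 targets, 5 were higher and 1 lower in TIR1, 7 and 0 in PDS5AB, 5 and 0 in WAPL cells, 5 and 0 in PDS5AB-NIPBL cells and 2 and 0 in WAPL-NIPBL cells. The shares called were 54.5%, 63.6%, 45.5%, 45.5% and 18.2% in that order, against 19.9%, 46%, 32.8%, 19.5% and 8.57% of all genes. Mdm4 is also among the regulators and Sesn2 among the other p53 targets, so their calls are counted in both lists. Sesn3, the Sesn1 paralog, was called higher in all 5 lines, from 37.1 ± 1.28 to 59.9 ± 3.14 CPM in TIR1 (0.69, SE 0.101, adjusted p = 1.36e-05) and from 50.4 ± 2.26 to 106 ± 8.5 CPM in PDS5AB cells (1.07, SE 0.0997, adjusted p = 6.61e-10). Cdkn1c, the Cdkn1a paralog that encodes p57, fell in TIR1 cells (-0.71, SE 0.187, adjusted p = 0.00687) and rose in WAPL cells (1.73), PDS5AB-NIPBL (0.65) and WAPL-NIPBL cells (1.35). Cdkn1c shares 30.7% of its exon bases with Gm44732 on the opposite strand. Fragments over those bases cannot be assigned in counts made without strand and may be missing from them. Ccng2, the Ccng1 paralog, rose by 1.25 in PDS5AB cells (SE 0.266, adjusted p = 0.000286).

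Among 15 genes of apoptosis, which include Bbc3 and Fas, 4 were higher and 1 lower in TIR1, 7 and 3 in PDS5AB, 5 and 4 in WAPL cells, 6 and 0 in PDS5AB-NIPBL cells and 2 and 0 in WAPL-NIPBL cells. In the same order 33.3%, 66.7%, 60%, 40% and 13.3% of the list were called, against 19.9%, 46%, 32.8%, 19.5% and 8.57% of all genes. Apaf1, Bax and Pmaip1 are also among the other p53 targets, so their calls are counted in both lists. Bcl2l11, the BH3-only protein BIM, was called higher in all 5 lines, by 0.41 in TIR1, 1.13 in PDS5AB, 0.95 in WAPL cells, 0.7 in PDS5AB-NIPBL cells and 0.49 in WAPL-NIPBL cells. Pmaip1, the BH3-only protein NOXA, went from 23.1 ± 2.51 to 51.8 ± 0.918 CPM in PDS5AB cells (1.17, SE 0.115, adjusted p = 1.74e-09). Apaf1, the core of the apoptosome, rose by 0.5 in TIR1 and 0.53 in PDS5AB-NIPBL cells, and Bak1, a pore-forming effector, fell in WAPL cells (-0.72, SE 0.0837, adjusted p = 6.9e-08). Bak1 shares 25.5% of its exon bases with Ggnbp1 on the opposite strand, so its counts carry the same limit.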

How the data were processed

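The deposited table holds raw counts per gene in 30 libraries. Per the file headers, featureCounts 2.0.1 counted fragments in paired-end mode over exons of GENCODE vM23, with no option for strand, multimapping or overlapping genes. Per the submitters' processing notes, STAR 2.7.7a and cutadapt were used, with the builds mm10 and GRCm38.p6. Of the gene identifiers, 99.5% matched a symbol.

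The counts were fitted with edgeR 4.0.16 in R 4.3.3: filterByExpr (minimum count 10), TMM factors (0.95 to 1.13), 10 group means over all 30 libraries with 20 residual degrees of freedom, the quasi-likelihood test, and Benjamini-Hochberg adjustment over 19868 genes. The common biological coefficient of variation was 9.15%. Fold changes of differences are interaction contrasts. The fits were repeated with the compared groups alone, a replicate block, each library left out, no filter, RLE factors, and DESeq2 (version 1.42.0).

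Same-numbered treated and untreated libraries deviated together in the 4 degron lines (r from 0.109 to 0.333 over genes) but not in TIR1 (-0.01 to 0.057). The pairing rests on the replicate numbers in the labels and this check. The check does not cover untreated baselines, where the block matches replicate numbers between different lines.

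The 10 genes and all lists were chosen with earlier results of these data known. Genes named beyond the 10 are, per list and treatment effect, the 2 called genes with the largest change and a mean of at least 50 counts. Trp53, Mdm4, Ppm1d and the genes most alike in pattern were added. Marker lists for other cell types held fibroblast, primitive endoderm, trophoblast, neural and two-cell-like genes. Promoter windows come from RefSeq.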

Additional observations from a re-analysis of the deposited data

Results flagged for a closer look

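A test of the difference between lines in the treatment change (edgeR's interaction contrast, adjusted p under 0.05) singled out 15 values among the 10 p53 targets. Of these, 8 were called in each of 17 alternatives and 7 lost the call in at least 1.

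The change in PDS5AB exceeded that in TIR1 cells for Mdm2 (0.28), Btg2 (0.8), Perp (0.81) and Ccng1 (0.28), and that in WAPL cells for Cdkn1a (0.61), Mdm2 (0.28), Btg2 (0.83) and Perp (1.15). Against TIR1, the change of Cdkn1a was smaller in WAPL (-0.49) and WAPL-NIPBL cells (-0.65), that of Mdm2 (-0.34) and Trp53inp1 (-0.44) was smaller in WAPL-NIPBL cells, and that of Btg2 was larger in PDS5AB-NIPBL cells (0.43). The TIR1 libraries span both number ranges, which enters each difference from TIR1 and was not tested. Adding NIPBL-FKBP with dTAG-13 went with a smaller change of Cdkn1a beside PDS5AB (-0.41) and of Mdm2 beside WAPL (-0.34). The lines compared there also differ in the RAD21-Halo allele and in dTAG-13 itself, which cannot be told apart from the loss of NIPBL.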

How the results depend on the processing

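Of 160 values of single targets (10 genes in 16 contrasts), 66 were called, 47 of them in every alternative. Another 35 were called in at least 1 alternative, and 59 in none. Of the 59, 22 changed sign in at least 1 alternative. Their values lay between -0.27 and 0.31 in the main fit and between -0.59 and 0.61 in the alternatives. Of the other 101, the sign changed for Zmat3 in untreated PDS5AB against TIR1, which was 0.12 and ran from 0 without PDS5AB untreated replicate 1 (adjusted p = 0.99, edgeR) to 0.21 without TIR1 untreated replicate 1. No level moved by over 1 SD with RLE factors. With the replicate block, genes called numbered 7065 in TIR1 (3962 without it), 6377 in PDS5AB-NIPBL (3874) and 4152 in WAPL-NIPBL (1702). For differences they numbered 7983 in PDS5AB against TIR1 (5224), 7034 in WAPL against TIR1 (4122), 4996 in PDS5AB-NIPBL against TIR1 (2005), 4436 in WAPL-NIPBL against TIR1 (1398, and 2122 with the compared groups alone), 4847 in PDS5AB-NIPBL against PDS5AB (1879), 3070 in WAPL-NIPBL against WAPL (1032) and 5422 in PDS5AB against WAPL (2481). In the same blocked fits targets called numbered 7 in WAPL-NIPBL, and for differences 7, 3, 6 and 5 against TIR1 (PDS5AB, WAPL, PDS5AB-NIPBL, WAPL-NIPBL), 4 in PDS5AB-NIPBL against PDS5AB, 3 in WAPL-NIPBL against WAPL and 8 in PDS5AB against WAPL. In other fits targets called (genes called in brackets) numbered 4 in WAPL-NIPBL with the compared groups alone (1748). They numbered 2 in PDS5AB against TIR1 without a filter (5048), and 2 in PDS5AB-NIPBL against TIR1 with DESeq2 (2284), without a filter (2190) or with the compared groups alone (2220). PDS5AB-NIPBL against PDS5AB gave 3 without a filter (2006), and WAPL-NIPBL against WAPL 2 with RLE factors (1023) or DESeq2 (1235). TIR1 is not paired by number, so its blocked values rest on numbers alone. The cause of these moves was not tested.

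Without 1 library at a time, targets called ran from 5 to 9 in TIR1, 10 to 10 in PDS5AB, 5 to 6 in WAPL, 8 to 9 in PDS5AB-NIPBL and 0 to 2 in WAPL-NIPBL cells. Over all genes 2689 to 3362 (TIR1, 3962 with every library), 8084 to 8642 (PDS5AB, 9134), 5275 to 6347 (WAPL, 6517), 2859 to 3335 (PDS5AB-NIPBL, 3874) and 1147 to 1334 (WAPL-NIPBL, 1702) were called in the same fits. At baseline targets ran from 4 to 6 in PDS5AB (genes 5459 to 6167, 6362 with every library), 1 to 3 in WAPL (1599 to 2641, 2785) and 4 to 7 in PDS5AB-NIPBL cells (5474 to 6110, 6809). For differences targets ran from 2 to 7 in PDS5AB against TIR1 (genes 4349 to 5337, 5224 with every library), 0 to 1 in PDS5AB-NIPBL against TIR1 (1486 to 1915, 2005), 0 to 3 in PDS5AB-NIPBL against PDS5AB (1272 to 2078, 1879), 1 to 2 in WAPL-NIPBL against WAPL (713 to 1126, 1032) and 3 to 5 in PDS5AB against WAPL (1974 to 2615, 2481). Fewer samples and fewer residual degrees of freedom enter these fits. Fas had the fewest counts of the 10, at 4 to 183 per library.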

Other observations

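Markers of other lineages were counted beside the p53 targets. Of 7 primitive endoderm genes, 1 was called higher in TIR1 cells, 5 in WAPL cells, 4 in PDS5AB cells and 3 in each of the NIPBL-FKBP lines. That is 14.3%, 71.4% and 57.1% of the list in TIR1, WAPL and PDS5AB cells and 42.9% in both NIPBL-FKBP lines, against 19.9%, 32.8% and 46% of all genes, with 19.5% for PDS5AB-NIPBL cells and 8.57% for WAPL-NIPBL cells. The gene called in TIR1 cells was Pdgfra, which the fibroblast list holds too. Dab2, an endocytic adaptor, rose by 2.32 in WAPL cells (SE 0.173), by 1.76 in PDS5AB cells (SE 0.165), by 1.59 in WAPL-NIPBL cells (SE 0.238) and by 1.43 in PDS5AB-NIPBL cells (SE 0.191). Of 7 two-cell-like genes, 5 passed the filter on low counts and were called higher in PDS5AB and WAPL cells, among them Zscan4d (1.3 and 2.45) and Zscan4c (1.03 and 2.03), members of a family of near-identical copies whose counts are uncertain. In the other lines the 7 genes summed to at most 2.48 CPM in any library (at most 1.02 CPM in the NIPBL-FKBP lines), too low to compare. Of 10 pluripotency markers, 10 fell in PDS5AB, 8 in each of the other degron lines, and 3 in TIR1 cells, where 2 rose. The shares called were 100%, 80% and 50%, against 46% of all genes in PDS5AB cells, 32.8%, 19.5% and 8.57% in WAPL, PDS5AB-NIPBL and WAPL-NIPBL cells, and 19.9% in TIR1 cells.

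Utf1, a chromatin factor of pluripotent cells, fell in all 5 lines, with changes of -1.88 in TIR1 cells, -2.42 in PDS5AB cells, -2.08 in WAPL cells, -2.02 in WAPL-NIPBL cells and -2.48 in PDS5AB-NIPBL cells. Zfp42 fell in PDS5AB (-1.3) and Klf4 in WAPL cells (-1.17), while Klf4 rose in TIR1 cells (0.57). Trophoblast genes were mixed: Krt7 rose in all 5 lines (0.97 to 2.64), Cdx2 rose in TIR1 cells (2.78, SE 0.228), and Tfap2c fell in WAPL (-2.15), PDS5AB-NIPBL (-1.33) and WAPL-NIPBL cells (-1.34). The Krt7 libraries overlapped in WAPL-NIPBL cells (0.97, SE 0.306, adjusted p = 0.0442, edgeR). Of 7 tested, 3 were higher and 0 lower in TIR1, 2 and 2 in PDS5AB and in WAPL cells. In PDS5AB-NIPBL cells they were 3 and 2, and in WAPL-NIPBL cells 1 and 1. The shares called were 42.9%, 57.1%, 57.1%, 71.4% and 28.6%, against 19.9%, 46%, 32.8%, 19.5% and 8.57% of all genes. Neural genes summed to 135 to 253 CPM and moved both ways, with Sox1 lower in all 5 lines. Of 5 tested, 0 were higher and 2 lower in TIR1, 2 and 2 in PDS5AB cells, and 1 and 1 in WAPL and in PDS5AB-NIPBL cells. In WAPL-NIPBL cells they were 0 and 1. The shares called were 40%, 80%, 40%, 40% and 20%, against the same shares of all genes. Fibroblast markers summed to at most 33.3 CPM in any library. Their sum went from at least 15.3 to at most 9.12 CPM in WAPL cells, from at most 25.6 to at least 33 CPM in PDS5AB cells and from at most 16.2 to at least 26.3 CPM in PDS5AB-NIPBL cells. Of 8 fibroblast genes 4 were tested, and 3 were lower and 1 higher in WAPL cells (Thy1 -1.78, Col1a1 -1.39, Col1a2 -1.67, Pdgfra 1.16), against 32.8% of all genes called. In PDS5AB cells 3 were higher (Col1a1, Col1a2 and Pdgfra), against 46%. In TIR1 cells 1 was higher and 1 lower (19.9% of all genes called). In PDS5AB-NIPBL cells 2 were higher and 1 lower (19.5%), and in WAPL-NIPBL cells 1 and 1 (8.57%).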
